A study of Mus musculus with 10 samples.

Results

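Lymphatic endothelial cells (LECs) are told from the endothelium of blood vessels by a small set of transcripts. Here 8 of them were followed in sorted meningeal cells: Prox1, Tbx1 and Maf, which encode transcription factors, Lyve1 and Pdpn, which encode surface proteins, and Mmrn1, Ccl21a and Reln, which encode secreted proteins. They were taken from the deposited count table by gene symbol, and all 8 were found among its 55401 genes. All 8 also passed a filter on low counts (over 5 counts in 3 or more of the 10 replicates), as did 14815 genes in all. The cells came from 3-month-old female C57BL/6 mice and were sorted from digested meninges as CD45-CD31+podoplanin+ cells. One group was naive (non-stressed). The other had gone through 6 days of sub-chronic variable stress (SCVS), a sequence of foot-shock, tail suspension and restraint. There were 5 replicates in each group, and a replicate was a pool of cells from 3 to 4 animals. The comparison addressed how stress alters the transcripts of meningeal LECs.

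Lymphatic vessels of the dura mater drain fluid, solutes and immune cells from the meninges towards the cervical lymph nodes. During development venous endothelial cells take on lymphatic fate when SOX18 and NR2F2 switch on PROX1, which is then needed throughout life to keep that fate. The signal of VEGFC through its receptor VEGFR3 (gene Flt4) drives the sprouting of these cells and their upkeep in adults.

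Each replicate held between 9984743 and 14094155 counts, and 13984 to 15988 genes had at least 1 count. Values are given as CPM, the counts of a gene scaled to a total of 1000000 per replicate. A count of 0 leaves room for up to 3 counts, which was 0.213 to 0.301 CPM depending on the replicate, and this limit covers counting error only. The RNA had been amplified before sequencing, and replicates were unlike each other: Pearson's r between any pair of them, across the tested genes, was between 0.485 and 0.709 on the log2(CPM + 1) scale. Pecam1, the gene of the CD31 antigen used for sorting, had 5870 to 15644 counts in 9 replicates and 287 counts in naive 5. Ptprc, the gene of CD45, had 0 or 1 count in each naive replicate and in SCVS 2 and SCVS 3, and 27, 113 and 404 counts in SCVS 1, SCVS 4 and SCVS 5. Naive 5 stood apart in its endothelial transcripts as well. Its summed level of 10 pan-endothelial genes was 885 CPM, against 4982 to 10545 CPM in the other replicates.

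The levels of the 8 genes were ordered as CPM per kilobase of annotated exon. On that scale and over the 10 replicates, the order of the levels was Mmrn1, 135 ± 116 (SD, n = 10), then Lyve1, 96.6 ± 107, Pdpn, 32.9 ± 37.5, Tbx1, 18.9 ± 17.0, Ccl21a, 17.0 ± 9.51, Prox1, 13.6 ± 17.3, Reln, 7.11 ± 6.28, and Maf, 6.52 ± 5.54 CPM per kilobase. Each neighbouring pair in this order differed by less than the larger of its SDs. The place of Ccl21a is also uncertain because its reads could have gone to another gene copy or to none, as described below. Reln has the longest transcripts of the 8 genes, with 19845 exonic bases.

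Prox1 (ENSMUSG00000010175, chr1:190118035-190170827, GRCm38) encodes the homeobox factor that sets and keeps lymphatic identity. In the naive replicates 1 to 5 it measured 0, 69.4, 52.0, 4.13 and 63.2 CPM. In the SCVS replicates 1 to 5 it measured 1.06, 23.4, 223, 123 and 0.200 CPM. Naive 1 had no Prox1 count and SCVS 5 had 2, so both groups ran from the detection limit to their highest value. SCVS 3 alone lay above 200 CPM, and the groups overlapped across most of their range.

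Tbx1 (ENSMUSG00000009097, chr16:18580979-18590671) encodes a T-box factor known as an activator of Flt4 in LECs. Its naive values were 0, 74.6, 34.1, 58.4 and 0 CPM. Its SCVS values were 0.0710, 18.7, 62.1, 74.5 and 20.3 CPM. Thus 3 replicates, naive 1, naive 5 and SCVS 1, had 0 or 1 count, whereas every other replicate had at least 203 counts. The highest values of the groups, in naive 2 and SCVS 4, were nearly equal.

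Maf (ENSMUSG00000055435, chr8:115703253-115706894) encodes a basic leucine zipper factor that is active in LECs and also in macrophages and T cells. Its values were 13.5, 108, 14.7, 128 and 10.7 CPM in the naive replicates. They were 43.1, 34.4, 107, 67.3 and 10.8 CPM in the SCVS replicates. Maf was the only 1 of the 3 transcription factor genes with over 100 counts in every replicate. The naive replicates fell into 3 low and 2 high values, and 4 of the 5 SCVS replicates lay between them.

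Lyve1 (ENSMUSG00000030787, chr7:110850607-110862953) encodes a hyaluronan receptor of lymphatic capillaries that some tissue macrophages also carry. Naive replicates had 0.192, 839, 212, 302 and 0.0750 CPM. SCVS replicates had 187, 77.7, 156, 647 and 97.3 CPM. All SCVS replicates lay within the range of the naive ones, because naive 1 and naive 5 had 2 counts and 1 count while naive 2 had the highest value of all 10. The summed level of 10 macrophage genes was 6327 CPM in SCVS 4, the replicate with the highest Lyve1 of its group, and at most 945 CPM in the others. In naive 2, with more Lyve1, it was 150 CPM, and the part of macrophage RNA in the Lyve1 values was not tested.

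Pdpn (ENSMUSG00000028583, chr4:143267409-143299564) encodes podoplanin, the sialoglycoprotein that binds CLEC-2 on platelets and that was itself a sorting antigen. Its naive values were 0, 77.6, 15.5, 3.76 and 26.3 CPM. Its SCVS values were 62.9, 48.6, 123, 221 and 19.8 CPM. Naive 1 held no Pdpn count although it was sorted as podoplanin-positive and had 10068 Pecam1 counts. Naive 2 and naive 5 lay within the range of the SCVS replicates and the other 3 naive replicates lay below it.

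Mmrn1 (ENSMUSG00000054641, chr6:60944317-60989378) encodes multimerin 1, a large glycoprotein of platelets and endothelium that is abundant in LECs. Naive replicates had 15.8, 1244, 536, 629 and 69.3 CPM. SCVS replicates had 833, 638, 2052, 1689 and 194 CPM. No replicate lacked it, the lowest being 165 counts in naive 1. Naive 1, naive 5 and SCVS 5 were its 3 lowest replicates.

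Reln (ENSMUSG00000042453, chr5:21884454-22344705) encodes reelin, the secreted glycoprotein of neuronal layering that LECs release towards the smooth muscle of collecting vessels. Its naive values were 0.480, 326, 126, 131 and 0.825 CPM. Its SCVS values were 206, 50.9, 357, 153 and 59.6 CPM. The pattern was that of Lyve1: naive 1 and naive 5 had 5 and 11 counts, and every other replicate had at least 595 counts.

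Ccl21a (ENSMUSG00000094686, chr4:42772860-42773991) encodes the chemokine CCL21, which guides CCR7-bearing dendritic cells and T cells into lymphatic vessels. Naive replicates had 8.25, 17.0, 5.44, 12.6 and 7.13 CPM. SCVS replicates had 6.67, 28.4, 19.6, 16.1 and 26.6 CPM. Ccl21a varied least of the 8 genes, with a coefficient of variation of 0.465 in naive and 0.449 in SCVS replicates, where the medians over all tested genes were 0.935 and 0.866. In the SCVS group 3 of 5 values lay above the highest naive value, while SCVS 1 lay below all but 1 naive replicate.

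**Figure D1:**
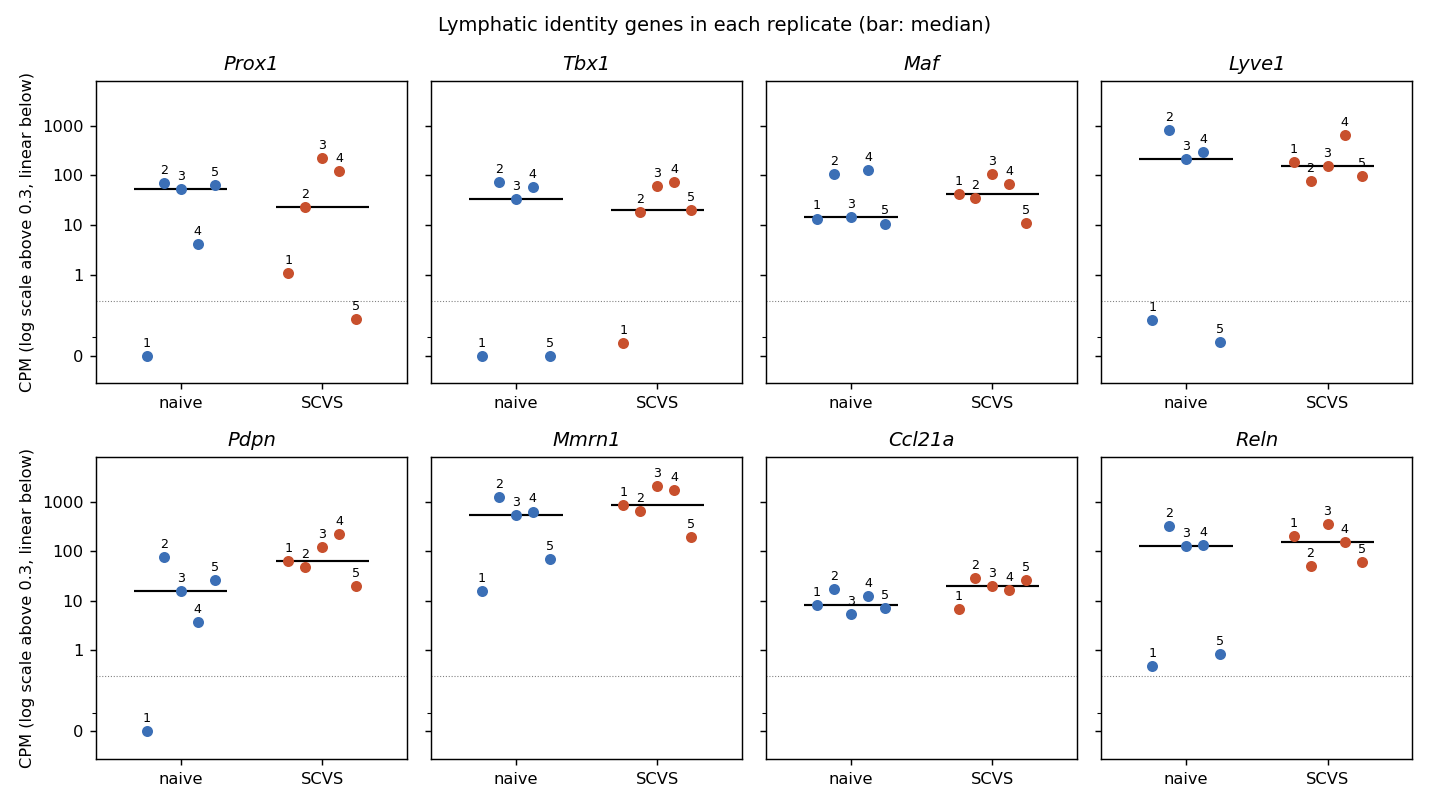
CPM of each of the 8 lymphatic identity genes in the 5 naive (blue) and 5 SCVS (red) replicates, numbered by replicate, on an axis that is logarithmic above 0.3 CPM (dotted line) and linear below it; horizontal bars are group medians. Naive 1 and naive 5 lie at or near 0 for Tbx1, Lyve1 and Reln, and the groups overlap for every gene.

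The mouse genome carries several nearly identical copies of the Ccl21 gene, which bears on what the Ccl21a row can hold. Of 10 annotated copies sought by symbol, 5 were rows of the table. Ccl21b had no count in any replicate, Ccl21d and Gm13304 had 1 count each in total, and Gm10591 had 12 to 167 counts per replicate. The first 300 of the 402 coding bases of Ccl21a and Gm10591 are shown, from the GENCODE M1 transcripts, to make plain how little separates them. Capitals mark the bases at which they differ:
Ccl21a: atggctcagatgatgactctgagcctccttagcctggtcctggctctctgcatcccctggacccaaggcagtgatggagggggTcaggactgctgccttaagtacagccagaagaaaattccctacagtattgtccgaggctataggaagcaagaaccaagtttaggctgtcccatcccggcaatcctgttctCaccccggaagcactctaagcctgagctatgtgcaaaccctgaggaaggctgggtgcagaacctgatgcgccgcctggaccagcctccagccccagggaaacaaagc
Gm10591: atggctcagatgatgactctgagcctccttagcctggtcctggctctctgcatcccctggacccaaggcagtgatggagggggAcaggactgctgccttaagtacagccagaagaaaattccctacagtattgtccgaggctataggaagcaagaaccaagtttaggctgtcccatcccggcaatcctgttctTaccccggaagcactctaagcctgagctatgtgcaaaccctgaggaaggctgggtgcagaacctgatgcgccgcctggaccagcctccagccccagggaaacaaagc
Counted from 1 at the start codon, the differences are T84A and C194T (Ccl21a base first), and they are the only 2 in the whole coding sequence, an identity of 99.5%. Of the 303 windows of 100 coding bases in Ccl21a, 119 (39.3%) also occurred letter for letter in Gm10591. Of the 771 such windows in the whole Ccl21a transcript, 769 (99.7%) occurred in the transcript of at least 1 other copy. These windows are shorter than the reads, which were paired and 150 bases long, and windows of that length were not examined. The coding sequence annotated for Gm1987, a copy that no row of the table names, is identical to that of Ccl21a. Its transcript held 769 of the 771 transcript windows. Reads could therefore have been assigned to another copy or to none, and the Ccl21a values are uncertain to that extent. How reads that match more than 1 copy were counted is not given in the sources used here. A sum over the copies would not recover reads left uncounted. Ccl21a held 56.4 to 92.7% of the counts summed over the copies. The summed level of the copies was 14.6 ± 9.25 CPM in naive and 24.3 ± 8.52 CPM in SCVS replicates (SD, n = 5 each), a difference of 9.65 CPM (two-sided exact permutation p = 0.119).

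Other annotated genes overlap some of these loci, and whether counting used strand is not given in the sources used here. Prox1 overlaps the antisense gene Prox1os, Tbx1 overlaps Gm35369, Ccl21a overlaps 4930578G10Rik, and Reln overlaps 3 annotated genes. No other RefSeq gene overlaps Lyve1, Pdpn, Mmrn1 or Maf.

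Replicates of one group often differed between almost no reads and many. In the naive group, Prox1, Tbx1, Lyve1 and Pdpn each had a replicate with at most 3 counts and another with at least 100, 4 of 8 genes, where 43.6% of all tested genes did so. In the SCVS group, Prox1 and Tbx1 did so, 2 of 8 genes, where the share of all tested genes was 38.1%. Such gaps were thus common throughout the table. The biological coefficient of variation that edgeR estimated over all genes was 1.59. The median coefficient of variation of the 8 genes was 1.03 in naive and 0.799 in SCVS replicates, close to the medians over all tested genes given above.

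Per kilobase, the 8 lymphatic genes were lower in sum than 8 genes of blood endothelium in every library. The summed CPM of the 8 genes was 38.3, 2755, 996, 1269 and 178 in naive 1 to 5, and 1340, 920, 3099, 2991 and 428 in SCVS 1 to 5. The summed CPM of the blood endothelial genes (Aplnr, Slco1a4, Plvap, Flt1, Vwf, Cldn5, Ly6c1 and Sox17) was 7854 in naive 1 and 313 in naive 5, and 5219 to 10273 in the other replicates. With each gene's CPM divided by its exon length before summing, the ratio of the lymphatic to the blood endothelial sum was 0.00307 in naive 1, between 0.0375 and 0.247 in 8 replicates and 0.432 in naive 5. Naive 1 thus kept the pan-endothelial and blood endothelial transcripts, with 15317 counts of Flt1 and 10121 of Cldn5, and lacked Prox1, Tbx1 and Pdpn. Naive 5 differed from it in having few of either, with 2 counts of Cldn5 and none of Vwf, while Prox1 was at 63.2 CPM. The summed level of 8 neural and glial genes was 3291 CPM in naive 5. That sum was 165 to 895 CPM in the other naive and 86.6 to 1835 CPM in the SCVS replicates. The part of such RNA in naive 5 was not tested. The labels name every sample LECs. Fewer lymphatic cells in a pool and less lymphatic RNA per cell cannot be told apart in bulk samples. At least 7 of the 8 genes were above 3 counts in every SCVS replicate, as were all 8 in naive 2, 3 and 4, but 4 genes were so in naive 1 and 6 in naive 5.

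**Figure D2:**
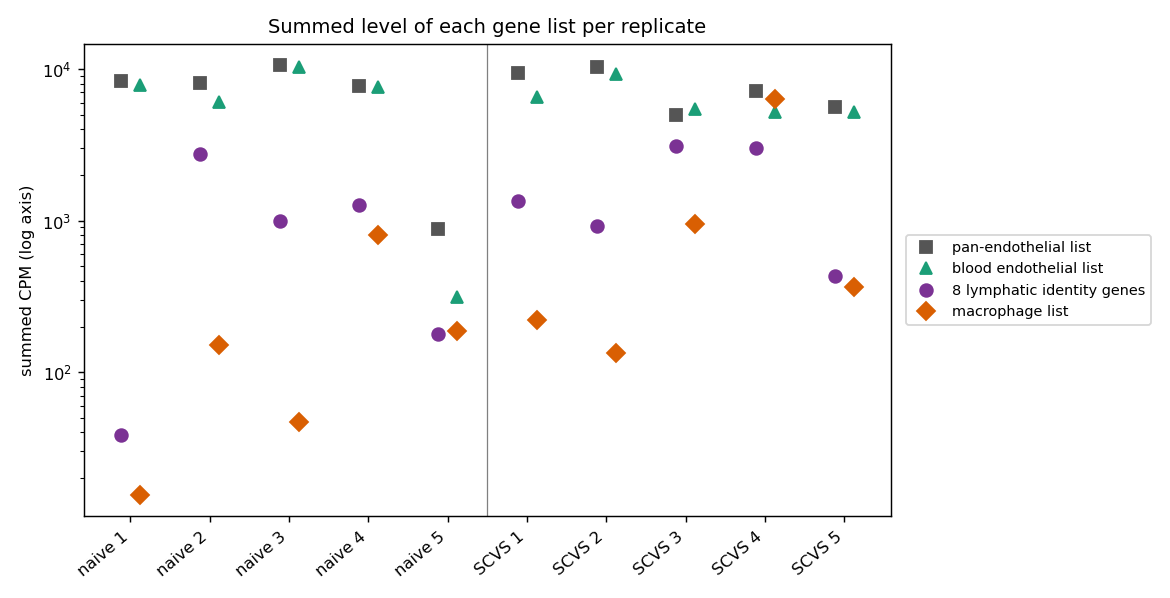
Summed CPM (logarithmic axis) in each replicate of the 8 lymphatic identity genes (circles), 10 pan-endothelial genes (squares), 8 blood endothelial genes (triangles) and 10 macrophage genes (diamonds); the vertical line separates naive from SCVS replicates. The lymphatic sum ranges from 38.3 CPM in naive 1 to 3099 CPM in SCVS 3 and is below the blood endothelial sum in every replicate.

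None of the 8 genes differed between naive and SCVS mice beyond the spread of the replicates. By the quasi-likelihood test of edgeR, adjusted by Benjamini and Hochberg's method over all tested genes, 0 of the 8 genes were past the threshold (adjusted p under 0.1), and their adjusted p was 1 in each case. The same was true of the whole table, where 0% of the 14815 tested genes were past it and 3.1% (460 genes) had an unadjusted p under 0.05, none of them one of the 8. With DESeq2, 114 of 13998 genes with an adjusted p were past the threshold (0.814%), again none of the 8, each of which had an adjusted p of 1.00. The CPM ranges of the groups overlapped for 8 of 8 genes, and 0.628% of all tested genes had ranges that did not overlap. The mean CPM was higher in SCVS for 6 of the 8 genes, where 50.9% of all tested genes were higher. The smallest p that the exact permutation test can give with 5 against 5 replicates is 0.00794.

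Pdpn showed the largest fold difference of the 8. Its mean was 24.6 ± 31.4 CPM in naive and 94.9 ± 79.7 CPM in SCVS replicates (SD, n = 5 each), a difference of 70.3 CPM (two-sided exact permutation p = 0.0873, unadjusted). The log2 fold change was 1.95 ± 1.25 (SE), and it was 3.03 without naive 2 and 1.35 without SCVS 4. Leaving out naive 2 gave an exact permutation p of 0.0318, and leaving out SCVS 5 gave 0.0476, so that the side of 0.05 on which this unadjusted value fell hung on single replicates. The cells had been sorted on the protein that this gene encodes.

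The secreted proteins' genes had higher means in SCVS replicates in all 3 cases, and none passed the test. Ccl21a was at 10.1 ± 4.68 CPM in naive and 19.5 ± 8.76 CPM in SCVS replicates (SD, n = 5 each), a difference of 9.41 CPM (exact permutation p = 0.0794) and a log2 fold change of 0.91 ± 0.94 (SE). Without SCVS 1 the exact permutation p was 0.0318, and with the copies summed the difference was that given above. Mmrn1 was at 499 ± 498 and 1081 ± 768 CPM (exact permutation p = 0.183, n = 5 each), with a log2 fold change of 1.13 ± 0.93. Reln was at 117 ± 133 and 165 ± 125 CPM (exact permutation p = 0.556, n = 5 each), with a log2 fold change of 0.52 ± 1.25, which became -0.01 without SCVS 3.

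For the transcription factors and Lyve1 the direction itself was not fixed. Prox1 was at 37.8 ± 33.2 CPM in naive and 74.3 ± 97.5 CPM in SCVS replicates (exact permutation p = 0.476, n = 5 each), with a log2 fold change of 0.99 ± 1.65. Without SCVS 3 this fold change was -0.04. Tbx1 was at 33.4 ± 33.7 and 35.1 ± 31.6 CPM (exact permutation p = 0.889, n = 5 each), with a log2 fold change of 0.10 ± 1.75 that turned negative, down to -0.38, when any 1 of naive 1, naive 5, SCVS 3 or SCVS 4 was left out. Maf was at 55.0 ± 58.0 and 52.5 ± 36.4 CPM (exact permutation p = 0.913, n = 5 each), with a log2 fold change of -0.05 ± 0.86 that was positive without any 1 of naive 2, naive 4, SCVS 1, SCVS 2 or SCVS 5, up to 0.51. Lyve1 was at 271 ± 344 and 233 ± 236 CPM (exact permutation p = 0.786, n = 5 each), with a log2 fold change of -0.19 ± 1.49. On the log2(CPM + 1) scale the difference of the Lyve1 means was 2.21 in favour of SCVS (exact permutation p = 0.413, n = 5 each), since that scale weighs the near absence in naive 1 and naive 5 more than the height of naive 2, and without naive 2 the fold change was 0.87.

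The median log2 fold change of the 8 genes was 0.72, and that of all tested genes was -0.03. It was -0.02 without SCVS 3, the replicate with the most Prox1, Mmrn1 and Reln. With standard errors from 0.86 to 1.75, these fold changes leave room for differences of several-fold in either direction for Prox1, Tbx1, Maf, Lyve1 and Reln.

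No other gene of the lymphatic programme passed the threshold either. Of 20 such genes listed, 19 were rows of the table and 17 passed the filter on low counts. Of these 17, 12 had a higher and 5 a lower fitted level in SCVS, with a median log2 fold change of 0.22, and 0 passed the threshold in edgeR (smallest adjusted p = 1) or in DESeq2. Flt4, which encodes the VEGFC receptor VEGFR3, was at 18.0 to 174 CPM in naive and 42.5 to 256 CPM in SCVS replicates, with a log2 fold change of 0.82 ± 0.63 (SE). Vegfc, its ligand, was at 0 to 37.0 and 7.71 to 128 CPM, with a log2 fold change of 1.72 ± 1.49. Nr2f2 and Sox18, the factors that precede Prox1 in development, had log2 fold changes of 0.20 ± 0.75 and 0.22 ± 0.56. Sox18, which blood endothelium also makes, had 780 CPM in naive 1, where Prox1 was at 0. One gene of the list had an unadjusted p under 0.05, Clca3a1, a chloride channel accessory protein, with 355, 678 and 312 counts in naive 2, 4 and 5, 7 counts in SCVS 3 and none in the other 6 replicates (edgeR adjusted p = 1, DESeq2 adjusted p = 0.267). Foxc2, a factor of lymphatic valves, was at 15.1 CPM in naive 1 and had at most 1 count in every other replicate.

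**Figure D3:**
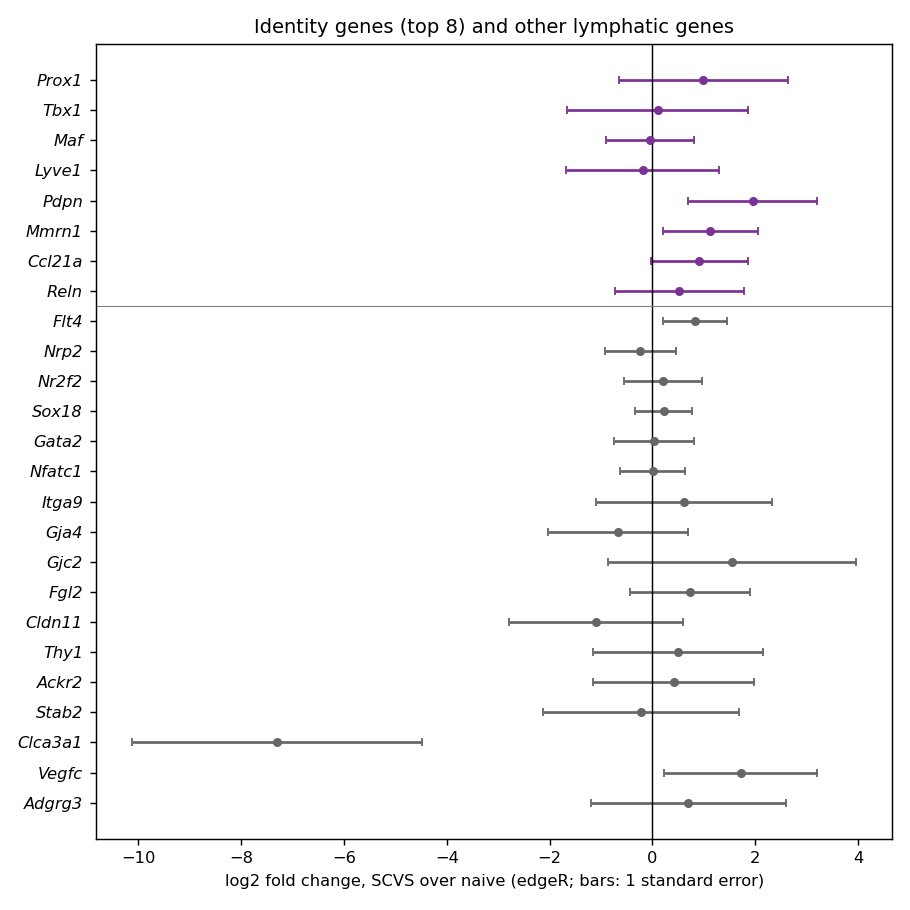
Log2 fold change of SCVS over naive replicates (edgeR, 5 replicates each) for the 8 lymphatic identity genes (purple, above the line) and 17 other lymphatic genes that passed the filter (grey); bars are 1 standard error. The identity genes run from -0.19 for Lyve1 to 1.95 for Pdpn, and no gene passed the threshold.

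Genes whose products meet those of the 8 were mostly low. Of 13 partners, 8 passed the filter, 6 of them with a higher and 2 with a lower fitted level in SCVS, and 0 passed the threshold. Sox18 and Nr2f2 are among these 8 and were also counted with the lymphatic genes above. Sox18 was not low, at 68.7 to 963 CPM in naive and 424 to 1135 CPM in SCVS replicates. Ccr7, the receptor of CCL21, had 7 counts in SCVS 4 and none elsewhere. Ackr4, which scavenges CCL21, reached 6.78 CPM in naive 4 and at most 1.13 CPM in any other replicate. The reelin receptor genes Vldlr and Lrp8 were uneven: Vldlr had 589 counts in naive 5, 581 in SCVS 2 and at most 5 in any other replicate, and Lrp8 ranged from 0 to 147 CPM. Clec1b, the gene of the podoplanin ligand CLEC-2, was at 0 to 35.7 CPM in naive and 0.302 to 123 CPM in SCVS replicates. Of the enzymes that make hyaluronan, the ligand of LYVE1, Has3 reached 45.0 CPM and Has1 and Has2 stayed at or under 1.44 CPM.

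Whether the 8 transcripts rose and fell together was examined over replicates for their 28 pairs. Over all 10 replicates, 8 pairs had a Benjamini-Hochberg adjusted p of Pearson's r under 0.05 (100000 permutations, log2(CPM + 1)). By Spearman's rho 10 pairs did (smallest adjusted permutation p = 0.0215), and 6 pairs were under 0.05 by both. However, several of these genes fell into separate clusters, with naive 1 and naive 5 near 0 and the rest far above. The share of pairs of other tested genes that would be called was not computed. Among 9974 genes with a mean of at least 10 CPM, the closest other of the 8 ranked from 4 (for Mmrn1) to 540 (for Ccl21a). Within the replicates in which both transcripts of a pair were at 1 CPM or above (6 to 10 per pair), 24 of 28 pairs had r above 0, with a median of 0.346, and 0 pairs had an adjusted p under 0.05. Leaving out the 2 replicates farthest from the median of the first gene, in place of that limit, also left 0 pairs by r. The 8 pairs called by r over all 10 replicates had an r of 0.541 to 0.862 within the replicates at 1 CPM or above, and 7 of them had fewer replicates there. Tbx1 with Lyve1 kept an r of 0.862 (exact permutation p = 0.0169, adjusted 0.157) and a rho of 0.893 (exact permutation p = 0.0123, adjusted 0.115, n = 7), and r was 0.634 without the 2 farthest.

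Within those replicates Tbx1 and Reln were the closest pair by r, 0.873 (exact permutation p = 0.0133, adjusted 0.157) with Spearman's rho 0.893 (exact permutation p = 0.0123, adjusted 0.115, n = 7), and r was 0.519 without the 2 farthest replicates. Mmrn1 and Reln had an r of 0.765 (exact permutation p = 0.0272, adjusted 0.190) and a rho of 0.786 (exact permutation p = 0.0279, adjusted 0.156, n = 8), and r was 0.531 without the 2 farthest. Maf and Mmrn1, both above 1 CPM in all 10 replicates, had an r of 0.759 (permutation p = 0.00569, adjusted 0.157) and a rho of 0.746 (permutation p = 0.0170, adjusted 0.119), and r was 0.698 without the 2 farthest. Ccl21a had both signs. Its r was positive with Mmrn1 (0.354), Prox1 (0.326), Maf (0.320) and Pdpn (0.255), each with an adjusted permutation p of 0.616. Its r was -0.302 with Tbx1 (exact permutation p = 0.550, rho -0.393, exact permutation p = 0.396, n = 7). Without the 2 replicates farthest by Tbx1, SCVS 2 and SCVS 5, its r was 0.927, with no p computed on the few left. Its r was -0.254 with Lyve1 (exact permutation p = 0.543, rho -0.548, exact permutation p = 0.171, n = 8) and -0.331 with Reln (exact permutation p = 0.421, rho -0.238, exact permutation p = 0.582, n = 8), and it was -0.736 and -0.589 without the 2 farthest. The adjusted p of r was 0.616 in these 3 cases too, and no difference between pairs was tested.

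**Figure D4:**
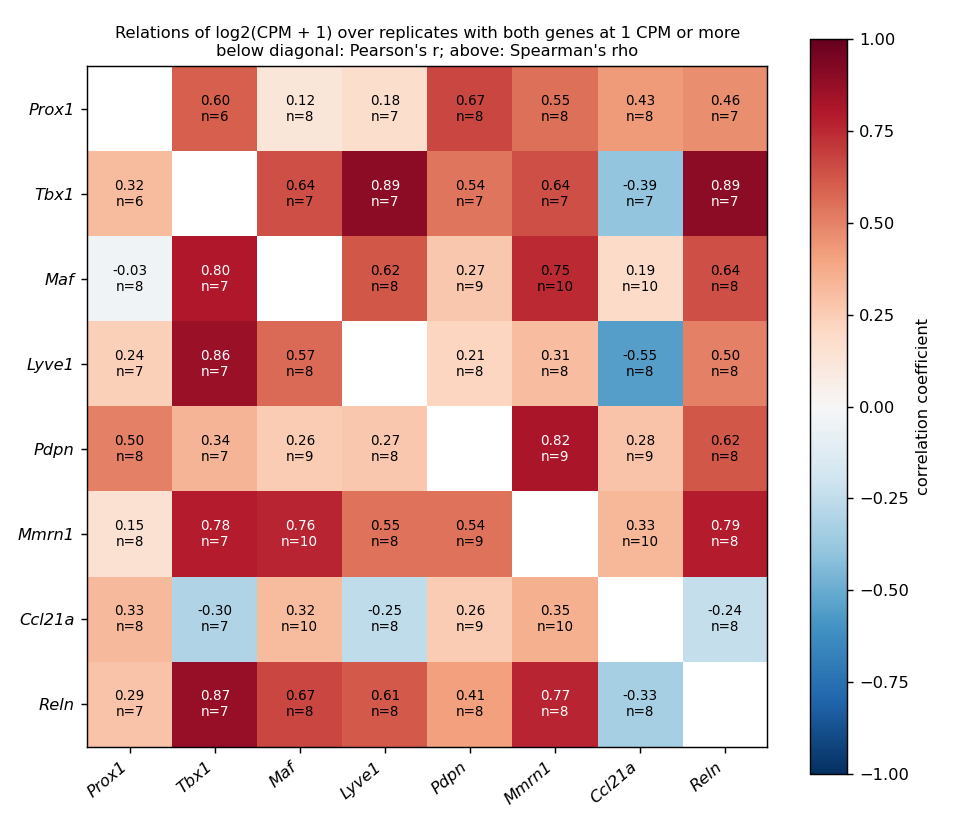
Pearson's r (below the diagonal) and Spearman's rho (above) of log2(CPM + 1) for each pair of the 8 genes, over the n replicates in which both were at 1 CPM or above. Coefficients run from -0.33 to 0.87 for r, Ccl21a has the negative ones apart from Prox1 with Maf, and no pair had an adjusted p under 0.05.

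The genes whose pattern over the 10 replicates was most like that of each lymphatic gene were found among 9974 genes with a mean of at least 10 CPM, by Pearson's r of log2(CPM + 1). This is a description without a test, and for the genes near 0 in naive 1 and naive 5 it rests largely on that absence. They were Wwp1, Smc2 and Zfp971 for Prox1 (r from 0.936 to 0.949), Ptgfrn, Casp8ap2 and Mbtps1 for Tbx1 (0.954 to 0.960), and Adgrg3, Pola1 and Ctu2 for Maf (0.910 to 0.948). For Lyve1 they were Pnp, Il2rg and Prps2 (0.972 to 0.975), and for Pdpn Tmem243, 4930503L19Rik and Ankib1 (0.903 to 0.932). For Mmrn1 they were Cdh13, Pard6g and Fxyd6 (0.943 to 0.953), for Ccl21a Thsd7a, St7 and Otulin (0.905 to 0.948), and for Reln 2900026A02Rik, Nsa2 and Gm525 (0.969 to 0.977). None of these 24 was another of the 8 genes. Reln had rank 4 of the 9974 genes for Mmrn1 and rank 6 for Lyve1, and Lyve1 had rank 5 for Reln. The closest of the 8 to Ccl21a was Tbx1, at rank 540.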

How the data were processed

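RNA of sorted meningeal cells from 10 pools (5 naive, 5 SCVS) was amplified with a whole-transcriptome kit and sequenced with paired ends. The authors deposited 1 table of raw counts per gene, not normalized. The submitters' processing notes name cutadapt 1.9.1, HISAT2 2.0.1, HTSeq 0.6.1, DESeq2 and the build GRCm38, whereas the methods of the study name mm9. Of the table's 55401 gene identifiers, 58.8% occur in the mm9 annotation (GENCODE M1), and that of Ccl21a does not, so positions are given from RefSeq on GRCm38.p6. Exon lengths and transcripts were taken from GENCODE M1 by symbol. The annotation release and use of strand in counting are not given in the sources used here.

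CPM was each count over its replicate's total. Genes over 5 counts in 3 or more replicates were tested with edgeR 4.0.16 (TMM scaling, quasi-likelihood, Benjamini-Hochberg adjustment over all tested genes, threshold 0.1) in R 4.3.3. The fits were also run on simulated counts with planted changes of a single size, and the smallest change they could detect was not examined. The SE of a log2 fold change was derived as its absolute value over the square root of edgeR's F statistic. DESeq2 1.42.0 and limma 3.58.1 were alternatives. CPM differences were tested by two-sided exact permutation over replicates (scipy 1.17.1), with p unadjusted. No replicate was left out. Named genes were the 8 genes, those of the lymphatic, partner, sorting and Ccl21 copy lists, up to 2 of each marker list by mean CPM with any past the threshold, and the 3 most alike each of the 8. The genes and lists were chosen with earlier results of these data known. Alternatives were other scalings, filters, tools and pseudocounts, a block, a covariate and leaving out each replicate in turn.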

Additional observations from a re-analysis of the deposited data

Results flagged for a closer look

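Of 16 combinations of a lymphatic identity gene and a group, 1 had a replicate far from the others of its group by Dixon's criterion: Lyve1 in SCVS 4, at 647 CPM, where the next highest SCVS replicate was at 187 CPM (the gap was 0.808 of the group's range). Chance flags about 1 in 20 such groups where values are normally distributed, which was not tested for these CPM values. The same replicate had the highest summed level of 10 macrophage genes, 6327 CPM, and the part of these in the Lyve1 value was not tested. Without SCVS 4 the naive mean exceeded the SCVS mean further, with a log2 fold change of -1.07.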

How the results depend on the processing

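In none of 11 other settings and 10 fits with 1 replicate left out did any of the 8 lymphatic genes pass the threshold. The number of genes past it in the whole table was 0 with edgeR's quasi-likelihood test under every scaling, filter, covariate and left-out replicate run, and was 38 with its likelihood ratio test, 114 with DESeq2, 123 with DESeq2 without Cook's and independent filters, and 3 with limma and voom, and the cause was not tested. The median log2 fold change of the 8 genes lay between 0.50 and 1.54 in the other settings and between -0.024 and 1.24 with 1 replicate left out. No label ties same-numbered replicates to each other beyond the number. The correlations of their deviations from the group means lay between -0.0169 and 0.149, and whether they shared a batch was not tested. With the replicate number as a block, 0 genes passed the threshold and the median was 1.54. In that fit the log2 fold change of Pdpn was 3.05 (3.29 with limma and voom), and those of Maf (0.30) and Lyve1 (2.06) were reversed. Lyve1 was also reversed with limma and voom (1.27) and Tbx1 with detected genes as a covariate (-0.33). On log2(CPM + 1) and log2(CPM + 0.1) scales the differences of means were reversed for Maf (0.37 and 0.39) and Lyve1 (2.21 and 3.13). With 1 replicate left out, log2 fold changes ranged from -0.036 to 1.31 for Prox1, -0.38 to 0.62 for Tbx1, -0.52 to 0.51 for Maf, -1.07 to 0.87 for Lyve1 and -0.013 to 1.36 for Reln, and CPM differences from -0.736 to 55.0 for Prox1, -8.14 to 12.0 for Tbx1, -16.1 to 15.7 for Maf and -141 to 104 for Lyve1. Pairs of genes with an adjusted p of r under 0.05 fell from 8 to 0 without the 2 farthest replicates, and to 0 within replicates at 1 CPM or above, a limit chosen after seeing the data. By Spearman's rho, 5 of the 24 most alike genes were shared with those by Pearson's r. The standard errors of the log2 fold changes were 0.86 to 1.75. The source of the spread was not tested.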

Other observations

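Transcripts of other meningeal and blood cells differed among the same libraries. All 10 macrophage genes had a higher fitted level in SCVS (median log2 fold change 2.66), as did 7137 of all 14815 tested genes. The summed macrophage level was 6327 CPM in SCVS 4 and 133 to 945 CPM in the other SCVS replicates. In the naive replicates it was 15.5 to 802 CPM. Lyz2 was at 0 to 260 CPM in naive and 61.5 to 3098 CPM in SCVS replicates, and no macrophage gene passed the threshold in edgeR. Of 7 fibroblast genes tested, 6 were lower in SCVS (median -2.69), with Mgp at 11.4 to 629 CPM in naive and 84.3 to 550 CPM in SCVS replicates, and of 7 mural genes 6 were lower (median -1.81), none past the threshold in edgeR. Acta2, a smooth muscle actin, was past it in DESeq2 and not in edgeR's quasi-likelihood test (DESeq2 adjusted p = 0.0600), as was Ptprc (DESeq2 adjusted p = 0.0801). Of 7 erythroid genes tested, 6 were higher in SCVS (median 5.11), and the summed level of the erythroid list was 4915 CPM in SCVS 5, where Prox1 was at 0.200 CPM, against 29.7 to 126 CPM in the other SCVS and 4.32 to 46.7 CPM in the naive replicates. The part of these transcripts in the values of the lymphatic genes was not tested.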
